A study of Mus musculus with 25 samples.

Results

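Untreated LysoMac, the lysozyme-rich macrophages of mouse Peyer's patches, were set against untreated CD8a+ conventional dendritic cells (cDC) of the same organ. The members were chosen by the sample labels alone: 3 arrays of TIM-4+ LysoMac, 3 of TIM-4- LysoMac and 3 of CD8a+ cDC, which are 9 of the 25 arrays in the series. All 9 came from untreated female wild-type (WT) C57BL/6 mice aged 6 to 8 weeks, and each array held RNA of cells pooled from 42 mice. The gate for TIM-4+ LysoMac took CD4+ TIM4+ cells that were CD11c-high, low in MHC class II, BST2+ and SIRPa+, and their main location is given as the interfollicular T cell zone. TIM-4- LysoMac had the same phenotype but for TIM4, and their main location is given as the subepithelial dome. CD8a+ cDC, which the labels place in the interfollicular zone too, were taken as CD8a+ MHC class II+ cells that were CD11c-high and SIRPa-, BST2-, CD11b- and CD4-. CD11c+ cells were enriched on magnetic beads before each sort, so every group passed a CD11c selection. The other 16 arrays of the series held CD11b+ and DN cDC without treatment, and CD11b+ and CD8a+ cDC taken after the TLR7 ligand R848.

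Peyer's patches are the lymphoid follicles of the small intestine that sample antigen through the epithelium of their dome. Macrophages there take up and destroy microbes and dying cells in acid lysosomes, and depend on the growth factor receptor CSF1R. CD8a+ cDC belong to the type 1 lineage (cDC1), which depends on FLT3, IRF8 and BATF3, carries the chemokine receptor XCR1 and presents antigen of other cells to CD8 T cells.

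Gene levels were log2 signals from Affymetrix Mouse Gene 1.0 ST arrays, so 1 unit is a 2-fold step. The LysoMac and CD8a+ cDC arrays lay in different array sets of the deposited table, whose rows were in different orders. The rows of each set were aligned to the R848-treated arrays, the only ones that the deposited row names fitted, and 13746 genes had an accepted row on both sides. Array set and cell group cannot be told apart, since every LysoMac array lay in one set and every CD8a+ cDC array in the other. The median difference between the sides was 0.17 over all genes, 0.10 over 760 genes that these cells should not express (such as olfactory receptors), 0.01 over 53 ribosomal protein genes and -0.09 over 25 housekeeping genes. Levels of those 760 genes had a median of 3.29 in LysoMac, against 3.16 in CD8a+ cDC, which gives the scale on which a low level is read below. Where one side lay near that level, it limits the size of the difference, which is then no exact fold. All differences that follow are LysoMac minus CD8a+ cDC in log2 units with the standard error of the fit (limma, 6 LysoMac and 3 CD8a+ cDC arrays, with the spread pooled over all 7 groups of the series). A gene was called where the Benjamini-Hochberg adjusted p was under 0.05 and the difference was at least 1.

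Of the 13746 genes, 1188 (8.64%) were called higher in LysoMac and 484 (3.52%) were called lower, 12.2% in all. The counts given below for gene lists are to be read against these shares. Of these 1672 genes, 1662 (12.1% of the genes compared) had 6 LysoMac arrays that did not overlap the 3 CD8a+ cDC arrays, which was so for 51.4% of all genes. By the adjusted p alone 54.9% of genes passed. The split depended on how the arrays were scaled: it was 726 higher and 860 lower after shifting each array to a common median, 770 and 772 after quantile normalization, and 854 and 663 after cyclic loess. In the same direction under all 4 scalings were 712 higher and 483 lower genes, and 0 called genes changed direction. The common-median shift lowered the median of all genes to -0.13, and with it positive differences just above 1 fell below the call. By at least 4 units, well beyond these offsets, 79 called genes were higher and 27 were lower.

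**Figure D1:**
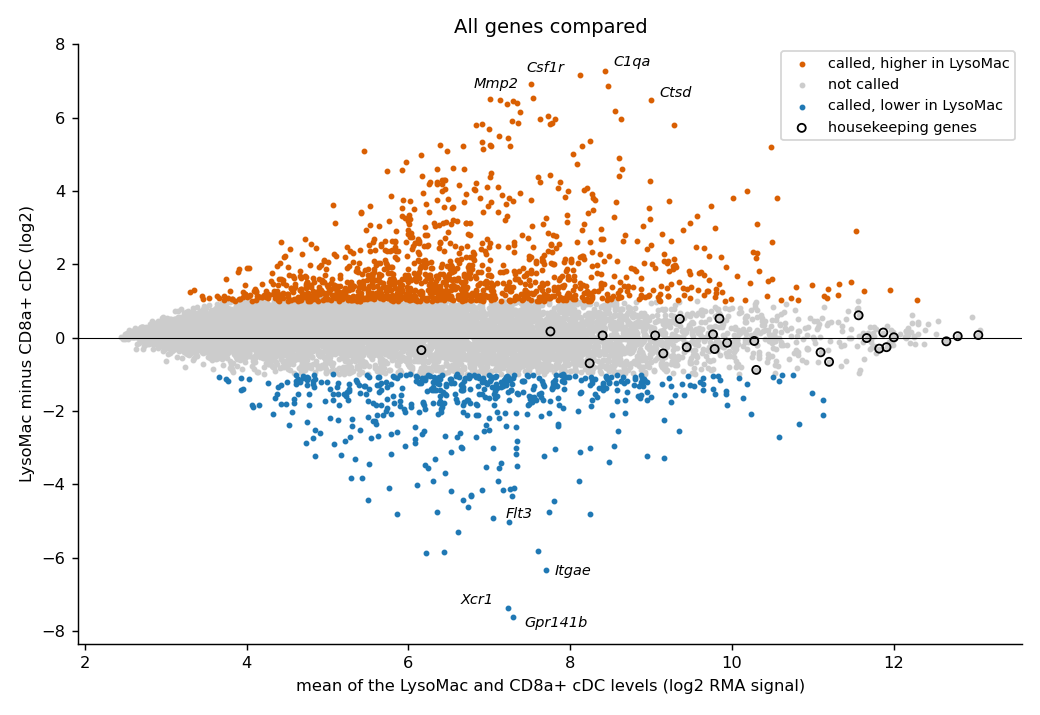
Difference between LysoMac and CD8a+ cDC (y axis, log2) against the mean of both group levels (x axis, log2 RMA signal) for the 13746 genes compared, 1 point a gene. The 1188 called higher genes reach 7.27 (C1qa), the 484 called lower genes reach -7.61 (Gpr141b), and the 25 housekeeping genes (open circles) were not called.

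The sort markers gave a check of the labels. Cd4, the coreceptor used in the LysoMac gate, had levels of 10.64, 10.69 and 10.61 in TIM-4+ LysoMac, 9.64, 10.11 and 10.05 in TIM-4- LysoMac, and 4.42, 4.52 and 4.36 in CD8a+ cDC. Every LysoMac array was above every CD8a+ cDC array, with a difference of 5.86 ± 0.15 (adjusted p = 2.47e-18). The difference was 3.86 ± 0.18 for Itgam, which encodes CD11b and was selected against in the CD8a+ gate. H2-Aa, H2-Ab1 and H2-Eb1, the chains of MHC class II, were lower, at -2.36 ± 0.19, -2.10 ± 0.16 and -2.72 ± 0.13. Itgax, which encodes CD11c and was selected in every group, differed by 0.12 ± 0.13 (adjusted p = 0.458). Its sign turned to -0.17 with a common median and to -0.16 after quantile normalization. These genes carry the sort itself and are no independent result. Sirpa, Bst2, Cd8a and Cd8b1 had no accepted row and were not analysed here.

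Macrophage identity genes stood higher in LysoMac: of 30 measured members of 46 listed, 22 were called higher and 1 lower, with a median of 2.70 (all genes: 0.17). C1qa, a chain of the complement starter C1q that tissue macrophages make, had levels of 12.17, 12.06 and 11.99 in TIM-4+ LysoMac, 12.04, 12.04 and 12.04 in TIM-4- LysoMac, and 4.72, 4.63 and 5.01 in CD8a+ cDC. The LysoMac arrays lay close together and far above the CD8a+ cDC arrays (7.27 ± 0.46, adjusted p = 1.18e-11). Csf1r, the receptor on whose signal macrophages depend, stood at 11.84, 11.73 and 11.65 in TIM-4+ LysoMac, 11.64, 11.82 and 11.57 in TIM-4- LysoMac, and 4.19, 4.34 and 5.10 in CD8a+ cDC, a difference of 7.16 ± 0.28 (adjusted p = 2.2e-15). Adgre4, an adhesion receptor of the family of F4/80, ranged over 10.12 to 10.54 in the LysoMac arrays, against 3.59 to 3.84 in the CD8a+ cDC arrays. The fractalkine receptor Cx3cr1 differed by 6.06 ± 0.22, and Adgre1, which encodes F4/80 itself, by 2.60 ± 0.18. Selenop, which carries selenium, was at 5.23 ± 0.25.

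Some members of that list did not pass the call. Cd68, a lysosomal membrane marker of macrophages, was at 0.85 ± 0.17, the high-affinity IgG receptor Fcgr1 at 0.40 ± 0.15, the myeloid transcription factor Spi1 at 0.33 ± 0.11 and the sialic acid receptor Siglec1 at 0.25 ± 0.09. Gatm, an enzyme of creatine synthesis, was the exception and was lower at 6.75 to 7.41 in the LysoMac arrays, against 9.03 to 9.20 in the CD8a+ cDC arrays (-1.99 ± 0.27). Under the other scalings 18 or 19 members were called higher and 1 lower. In a bulk sample, fewer cells of a type and less RNA per cell cannot be told apart, and this holds for every level given here.

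The cDC1 list ran the other way, with 15 of 18 measured members (of 45 listed) called lower in LysoMac and 1 called higher, and a median of -2.86. Xcr1, the chemokine receptor that defines cDC1, had levels of 3.48, 3.52 and 3.37 in TIM-4+ LysoMac, 3.62, 3.39 and 3.86 in TIM-4- LysoMac, and 10.95, 10.95 and 10.84 in CD8a+ cDC. LysoMac levels were near those of the genes that these cells should not express, and no array overlapped (-7.37 ± 0.11, adjusted p = 4.76e-22). Gpr141b, an orphan receptor, reached 3.50, 3.49 and 3.47 in TIM-4+ LysoMac, 3.49, 3.43 and 3.55 in TIM-4- LysoMac, and 11.35, 11.19 and 10.76 in CD8a+ cDC (-7.61 ± 0.16), with LysoMac again near those genes. Itgae, the integrin chain CD103, ranged over 4.09 to 4.97 in the LysoMac arrays, against 10.78 to 10.94 in the CD8a+ cDC arrays (-6.34 ± 0.26). Btla, an inhibitory receptor, was at -5.30 ± 0.17, Gpr33, a chemoattractant receptor, at -5.89 ± 0.15, and Cadm1, an adhesion molecule of cDC1, at -4.15 ± 0.17. Outside the list, the tight junction gene Cldn1 was at -5.85 ± 0.22, Plp2, a small membrane protein, at -5.81 ± 0.26, the endothelin-converting enzyme Ece1 at -5.02 ± 0.17, the septin Septin6 at -4.91 ± 0.15 and Ap1s3, a subunit of the AP-1 sorting complex, at -4.81 ± 0.14.

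Among transcription factors of the cDC1 lineage Irf8 was at -1.27 ± 0.18 and Batf3 at -1.21 ± 0.14, both called. Fkbp1b, a calcium channel regulator, was the member called higher (1.22 ± 0.19), and it was not called under any of the 3 other scalings. Dpp4, at 0.27 ± 0.10, and P2ry14, at -0.13 ± 0.29, were not called. Genes of the cDC2 lineage did not move as 1 group: of 14 measured (24 listed), 6 were called higher and 2 lower, with a median of 0.19. Csf1r, given above as a macrophage gene, and Itgam, selected against in the CD8a+ gate, were among the 6. The higher ones included Zeb2, a repressor active in myeloid cells, at 9.10 to 9.46 in the LysoMac arrays, against 4.02 to 4.12 in the CD8a+ cDC arrays (5.22 ± 0.13), and the lower ones were Rbpj, the effector of Notch signals (-2.06 ± 0.12), and Mgl2, a lectin (-1.12 ± 0.24). Rbpj was at -0.91 and not called where transcript clusters of a gene were averaged, and Mgl2 was at -0.87 and not called without CD8a+ cDC replicate 3.

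**Figure D2:**
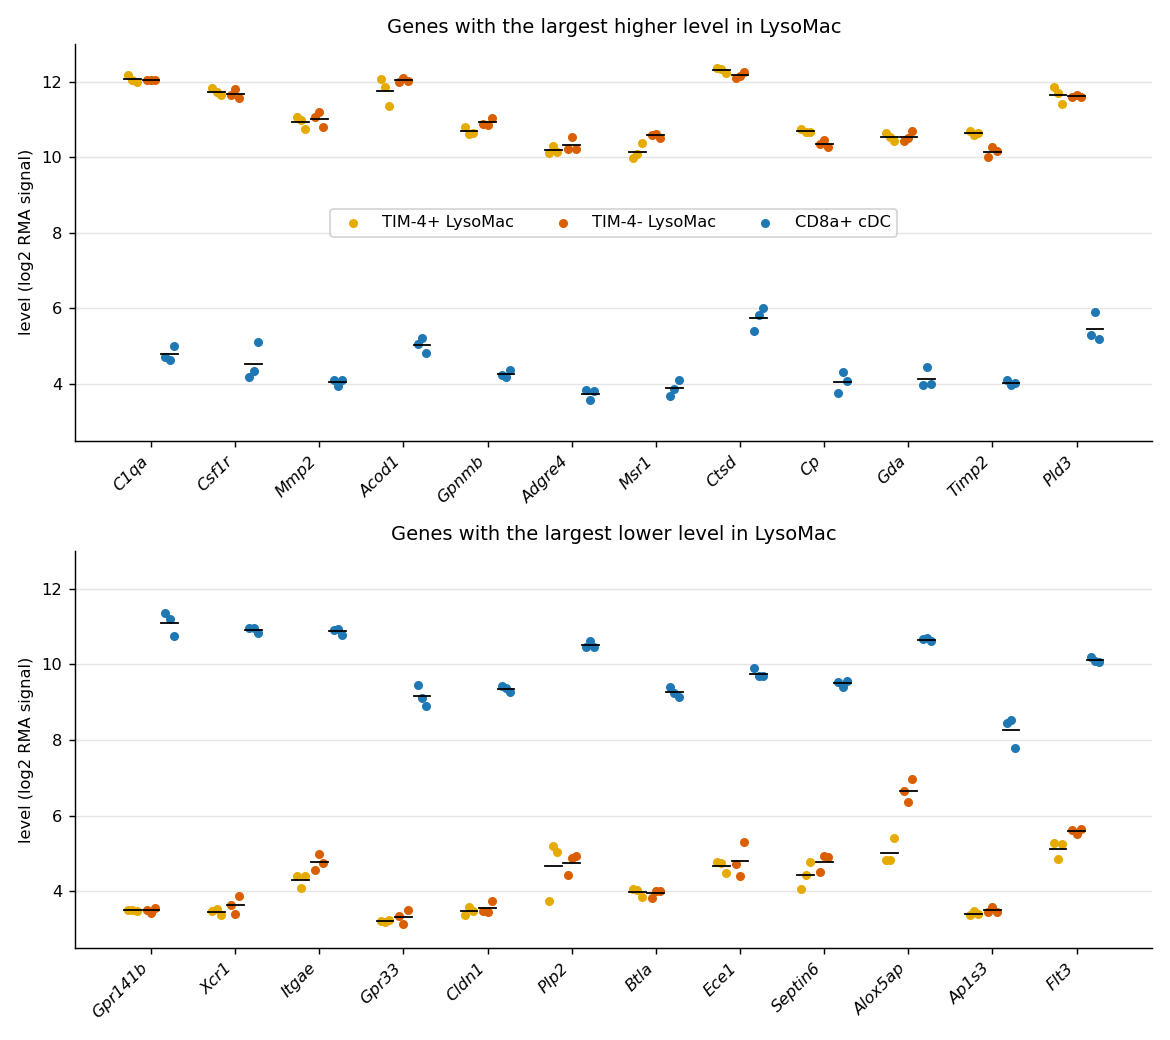
Levels (log2 RMA signal) in each of the 9 arrays for the 12 genes with the largest higher (top) and lower (bottom) difference by the naming rule, with bars at the mean of 3 arrays. TIM-4+ and TIM-4- LysoMac stand together on 1 side and CD8a+ cDC on the other for all 24 genes. Only Alox5ap was also called between the 2 LysoMac groups, though others, such as Timp2 and Flt3, had no overlapping arrays between them.

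Lysosomal genes were higher in LysoMac. Of 35 measured hydrolases (54 listed), 21 were called higher and 2 lower, with a median of 1.16, and of 25 measured lysosomal membrane genes and their regulators (33 listed) 15 were higher and 0 lower, with a median of 1.17. Ctsd, the aspartic protease cathepsin D, had levels of 12.36, 12.34 and 12.22 in TIM-4+ LysoMac, 12.09, 12.14 and 12.27 in TIM-4- LysoMac, and 5.41, 5.84 and 6.02 in CD8a+ cDC. The lowest LysoMac array exceeded the highest CD8a+ cDC array by a wide margin, and the fitted difference was 6.48 ± 0.32 (adjusted p = 1.64e-13). Acp2, the lysosomal acid phosphatase, was at 4.59 ± 0.18, the peptidase Tpp1 at 4.28 ± 0.13 and the dipeptidyl peptidase Ctsc at 3.11 ± 0.11.

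A pair of related genes went opposite ways. Pld3, an exonuclease of single-stranded nucleic acid in the lysosome, had levels of 11.86, 11.71 and 11.41 in TIM-4+ LysoMac, 11.59, 11.66 and 11.61 in TIM-4- LysoMac, and 5.29, 5.90 and 5.19 in CD8a+ cDC, a difference of 6.18 ± 0.31. Pld4, which has the same kind of activity, stood at 6.39, 7.22 and 7.21 in TIM-4+ LysoMac, 7.15, 7.43 and 7.00 in TIM-4- LysoMac, and 10.09, 9.78 and 10.19 in CD8a+ cDC, a difference of -2.96 ± 0.19. All LysoMac arrays were higher for Pld3 and all were lower for Pld4. Fuca1, which removes fucose from glycans, was the other lower hydrolase (-1.54 ± 0.14). Psap, the precursor of the saposins, at 0.10 ± 0.13, and the beta-glucuronidase Gusb, at -0.97 ± 0.12, were not called.

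Among membrane genes, Gpnmb, a glycoprotein of lysosome-related organelles, was at 10.63 to 11.05 in the LysoMac arrays, against 4.18 to 4.38 in the CD8a+ cDC arrays (6.54 ± 0.45). The transporters Slc15a3, which carries histidine and peptides, and Slc36a1, which carries small amino acids, were at 3.77 ± 0.21 and 3.56 ± 0.21. The abundant glycoproteins Lamp1 and Lamp2 were at 2.62 ± 0.09 and 1.87 ± 0.10, and the cholesterol exporter Npc1 at 2.37 ± 0.21. The calcium channels Mcoln1 and Mcoln2 were called at 1.16 ± 0.13 and 2.15 ± 0.16, while Mcoln3 was at 0.05 ± 0.09 and not called. Subunits of Lamtor, the scaffold for nutrient signals, were not called: Lamtor1 was at 0.08 ± 0.24 and Lamtor2 at 0.01 ± 0.25.

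The V-ATPase, the proton pump that acidifies lysosomes, had 5 of 14 measured subunits (22 listed counting accessory ones) called higher and 0 lower, with a median of 0.67. Atp6v0d2, the form of subunit d known from osteoclasts and macrophages, had levels of 10.32, 10.66 and 10.91 in TIM-4+ LysoMac, 9.74, 9.95 and 9.78 in TIM-4- LysoMac, and 4.25, 4.44 and 4.28 in CD8a+ cDC. No array overlapped, and the difference was 5.90 ± 0.15 (adjusted p = 1.77e-18). The other form, Atp6v0d1, was at 1.15 ± 0.14. Tcirg1, the a3 subunit of osteoclasts, was at 2.64 ± 0.12, Atp6v0b at 2.19 ± 0.13 and the accessory subunit Atp6ap2 at 1.37 ± 0.11. Atp6v0a1, the a1 subunit, was at 0.09 ± 0.18 and not called, nor was any measured subunit of the V1 part, among them Atp6v1h (0.48 ± 0.13).

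Genes of the MiT family of transcription factors, which bind E-box sequences in lysosomal promoters, were among the higher regulators. Tfeb, a member of that family, had no accepted row and was not assessed. Tfec had levels of 10.10, 9.84 and 9.69 in TIM-4+ LysoMac, 9.77, 9.87 and 9.70 in TIM-4- LysoMac, and 3.76, 4.15 and 4.09 in CD8a+ cDC (5.83 ± 0.37), and Mitf ranged over 8.64 to 9.02 in the LysoMac arrays, against 4.35 to 5.16 in the CD8a+ cDC arrays (4.06 ± 0.20), while Tfe3 was at 0.13 ± 0.14 and not called. The E-box CACGTG was therefore looked for in RefSeq promoters (250 bases before to 50 bases after the gene start, GRCm38.p6). It reads the same on both strands. Of 41 called higher genes of the 3 lysosome lists, 36 had a promoter in the table, and 13 (36.1%) held the motif. The share was 10% (3 of 30) for the measured members not called higher, 8.09% for all 27025 genes with a promoter and 9.79% for the genes compared that had one. The longer form TCACGTGA, which contains the shorter one, was in 6 of the 36 (16.7%), against 1 of the 30 (3.33%), 1.12% of all genes and 1.61% of the genes compared. These are matches of letters, with no test and no measure of binding.

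The promoters of the 4 called genes with the longer form and the largest differences are shown because they carry the match, with TCACGTGA in capitals. They belong to Ctsd (chr7:142387778-142388077, minus strand), Slc36a1 (chr11:55204090-55204389, plus strand), the alpha-galactosidase Gla (chrX:134600956-134601255, minus strand) and Cln3, a membrane protein lost in Batten disease (chr7:126583187-126583486, minus strand).
Ctsd: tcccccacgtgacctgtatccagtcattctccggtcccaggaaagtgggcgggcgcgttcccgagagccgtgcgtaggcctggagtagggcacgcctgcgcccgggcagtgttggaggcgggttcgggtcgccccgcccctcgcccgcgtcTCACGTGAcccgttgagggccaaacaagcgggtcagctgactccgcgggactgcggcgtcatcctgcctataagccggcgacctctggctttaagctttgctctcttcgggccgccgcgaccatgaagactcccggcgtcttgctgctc
Slc36a1: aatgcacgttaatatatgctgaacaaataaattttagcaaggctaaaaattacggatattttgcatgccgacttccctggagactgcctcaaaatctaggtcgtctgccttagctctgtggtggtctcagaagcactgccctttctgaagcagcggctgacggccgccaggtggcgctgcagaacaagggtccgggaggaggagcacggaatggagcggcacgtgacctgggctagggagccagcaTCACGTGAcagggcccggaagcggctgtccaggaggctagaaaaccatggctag
Gla: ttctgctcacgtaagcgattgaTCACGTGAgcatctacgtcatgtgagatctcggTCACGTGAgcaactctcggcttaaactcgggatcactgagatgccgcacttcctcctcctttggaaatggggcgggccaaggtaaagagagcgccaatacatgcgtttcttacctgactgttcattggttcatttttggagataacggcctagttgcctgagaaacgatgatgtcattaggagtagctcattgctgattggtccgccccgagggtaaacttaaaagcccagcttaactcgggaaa
Cln3: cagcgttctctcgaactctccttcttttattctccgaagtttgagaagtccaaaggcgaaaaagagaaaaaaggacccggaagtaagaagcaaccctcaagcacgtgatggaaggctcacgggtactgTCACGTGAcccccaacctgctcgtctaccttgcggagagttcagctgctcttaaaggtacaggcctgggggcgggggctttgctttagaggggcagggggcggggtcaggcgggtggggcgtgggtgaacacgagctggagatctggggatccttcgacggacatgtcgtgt
Gla held 2 copies and the others 1. In the Ctsd promoter the motif began at position -99 relative to the gene start. The differences of these genes were 6.48 ± 0.32 for Ctsd, 3.56 ± 0.21 for Slc36a1, 2.04 ± 0.21 for Gla and 1.17 ± 0.18 for Cln3.

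Receptors for particles and dying cells were higher for 9 of 21 measured members (39 listed) and lower for 3, with a median of 0.26. Timd4, the gene of the sorted receptor TIM-4, was among the 9 and carries the sort. Mertk, a receptor for dying cells bound through bridging proteins, had levels of 8.93, 8.71 and 8.90 in TIM-4+ LysoMac, 8.39, 8.58 and 8.41 in TIM-4- LysoMac, and 3.57, 3.75 and 3.68 in CD8a+ cDC (4.99 ± 0.16, adjusted p = 1.52e-16). No array overlapped. Its relative Axl was at 4.49 ± 0.16, while Tyro3, the third of that family, was at 0.26 ± 0.07 and not called. The bridging protein Pros1 was called at 1.07 ± 0.16. Msr1, the scavenger receptor A, was at 9.97 to 10.63 in the LysoMac arrays, against 3.69 to 4.10 in the CD8a+ cDC arrays (6.48 ± 0.34), but the scavenger receptor Marco was at -0.14 ± 0.08 and not called. Lower members were Anxa1, a phospholipid-binding protein, at 4.09 to 4.83 in the LysoMac arrays, against 8.86 to 9.25 in the CD8a+ cDC arrays (-4.61 ± 0.18), the lipoprotein receptor Scarb1 (-1.49 ± 0.15) and the integrin chain Itgav (-1.33 ± 0.09).

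Fc receptors and complement genes were called higher for 8 of 15 measured members (29 listed) and lower for 0, with a median of 1.41. Itgam, selected against in the CD8a+ gate, was among the 8 and carries the sort. Fcgr3, a low-affinity IgG receptor that activates the cell, ranged over 9.81 to 9.93 in the LysoMac arrays, against 3.80 to 5.02 in the CD8a+ cDC arrays (5.49 ± 0.34), and the signal chain it uses, Fcer1g, was at 3.80 ± 0.20. The inhibitory receptor Fcgr2b was at 0.30 ± 0.30 and not called. C5ar1, the receptor for the complement fragment C5a, was at 5.23 ± 0.25, properdin (Cfp) at 3.58 ± 0.19 and complement factor C2 at 3.34 ± 0.15. C4b was at 0.43 ± 0.09 and not called.

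Genes of microbial killing were measured in 2 lists. Of 9 measured genes of the phagocyte oxidase and nitric oxide list (15 listed) 5 were called higher and 0 lower, with a median of 1.02, and 4 were higher and 1 lower with a common median. Of 11 measured antimicrobial genes (29 listed) 5 were higher and 1 was lower, with a median of 0.92. Cybb, the catalytic subunit of the oxidase, had levels of 11.70, 11.55 and 11.51 in TIM-4+ LysoMac, 11.61, 11.73 and 11.63 in TIM-4- LysoMac, and 5.68, 5.20 and 6.04 in CD8a+ cDC (5.98 ± 0.32, adjusted p = 5.48e-13). Its partner Cyba was at 1.02 ± 0.21, the cytosolic subunit Ncf1 at 2.10 ± 0.10 and the proton channel Hvcn1 at 2.21 ± 0.23. Acod1, which makes itaconate, stood at 12.07, 11.86 and 11.36 in TIM-4+ LysoMac, 11.99, 12.10 and 12.03 in TIM-4- LysoMac, and 5.06, 5.21 and 4.82 in CD8a+ cDC (6.87 ± 0.40), and no array overlapped for either gene.

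The lysozyme genes, from which the cells take their name, were both called. Lyz1 ranged over 12.94 to 13.14 in the LysoMac arrays, against 7.42 to 8.14 in the CD8a+ cDC arrays (5.21 ± 0.67) and Lyz2 over 12.82 to 13.09 in the LysoMac arrays, against 9.98 to 10.16 in the CD8a+ cDC arrays (2.91 ± 0.77). The genes are near-identical copies, so how the signal divides between them is uncertain. Lyz2 averaged 12.60 in CD11b+ cDC and 12.28 in DN cDC. LysoMac minus CD11b+ and DN cDC was 0.54 ± 0.59 for Lyz2, not called, and 3.25 ± 0.52 for Lyz1, called. Mpeg1, a pore-forming protein of phagocytes, was at 0.02 ± 0.14 and not called, and Pglyrp1, which binds bacterial cell walls, was lower at 4.59 to 5.65 in the LysoMac arrays, against 7.65 to 7.99 in the CD8a+ cDC arrays (-2.68 ± 0.22).

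Iron and copper genes were called higher for 15 of 26 measured members (32 listed) and lower for 0, with a median of 1.31. Cp, the copper-carrying ferroxidase ceruloplasmin, had levels of 10.76, 10.68 and 10.67 in TIM-4+ LysoMac, 10.35, 10.45 and 10.27 in TIM-4- LysoMac, and 3.75, 4.33 and 4.09 in CD8a+ cDC (6.47 ± 0.20, adjusted p = 4.67e-17). All 6 LysoMac arrays were high and all 3 CD8a+ cDC arrays were low. Enzymes of heme breakdown were higher: Hmox1 at 4.03 ± 0.27, Blvrb at 3.42 ± 0.27 and Blvra at 1.11 ± 0.18. The iron exporter Slc40a1 was at 2.42 ± 0.17, Ncoa4, which delivers ferritin to lysosomes, at 2.29 ± 0.10, and the ferritin light chain Ftl1 at 1.29 ± 0.08. The metal-binding protein Mt1 was at 3.33 ± 0.21. The transferrin receptor Tfrc was at 0.85 ± 0.23 and the other multicopper ferroxidase, Heph, at 0.18 ± 0.08; neither was called.

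Matrix proteases and their partners were higher for 9 of 21 measured members (32 listed) and lower for 3, with a median of 0.70. Mmp2, a gelatinase, had levels of 11.06, 10.98 and 10.76 in TIM-4+ LysoMac, 11.07, 11.20 and 10.81 in TIM-4- LysoMac, and 4.12, 3.95 and 4.11 in CD8a+ cDC (6.92 ± 0.25, adjusted p = 6.04e-16). Mmp14, the membrane protease known to activate pro-MMP2, ranged over 10.30 to 10.66 in the LysoMac arrays, against 4.15 to 4.40 in the CD8a+ cDC arrays (6.15 ± 0.18), and Timp2, the inhibitor through which both are joined in that reaction, over 10.01 to 10.71 in the LysoMac arrays, against 3.97 to 4.10 in the CD8a+ cDC arrays (6.37 ± 0.13). None of these 3 genes had overlapping arrays. The urokinase Plau was at 4.01 ± 0.19 and its receptor Plaur at 4.22 ± 0.19. Timp1 and Mmp12, the macrophage elastase, were at 0.39 ± 0.09 and 0.70 ± 0.20 and were not called. The lower members were Adam23 (-4.33 ± 0.12), Adam8 (-3.17 ± 0.15) and Mmp25 (-1.68 ± 0.22).

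Eicosanoid genes were split within 1 pathway, with 9 of 19 measured members (29 listed) called higher and 3 lower, with a median of 0.53, and 6 higher under each other scaling. Alox5ap, which presents arachidonate to 5-lipoxygenase, had levels of 4.81, 4.81 and 5.40 in TIM-4+ LysoMac, 6.64, 6.36 and 6.96 in TIM-4- LysoMac, and 10.66, 10.69 and 10.61 in CD8a+ cDC (-4.82 ± 0.24, adjusted p = 2.11e-13). LysoMac were lower in all arrays, and TIM-4+ arrays lay below TIM-4- arrays. The lipoxygenase Alox5 was at 0.05 ± 0.09 and not called. Ltc4s, which makes leukotriene C4, had levels of 10.04, 10.17 and 10.03 in TIM-4+ LysoMac, 10.34, 10.25 and 10.33 in TIM-4- LysoMac, and 6.17, 6.14 and 6.82 in CD8a+ cDC (3.82 ± 0.24), and Lta4h, which makes leukotriene B4, was at 1.12 ± 0.14. Pla2g4a, which releases arachidonate, was at 3.21 ± 0.14, Pla2g7, which degrades platelet-activating factor, at 5.80 ± 0.31, the thromboxane synthase Tbxas1 at 1.39 ± 0.11 and the prostaglandin E synthase Ptges at 1.14 ± 0.14. Lta4h and Ptges were not called under any other scaling.

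MHC class II genes were lower for 7 of 13 measured members (17 listed) and higher for 1, with a median of -1.02. The gate selected low class II protein in LysoMac and class II+ cells in cDC, so it can set this direction. Ciita, the coactivator on which class II transcription depends, had levels of 4.87, 4.75 and 4.76 in TIM-4+ LysoMac, 5.45, 5.43 and 5.65 in TIM-4- LysoMac, and 9.24, 8.91 and 9.07 in CD8a+ cDC (-3.92 ± 0.11, adjusted p = 1.38e-17). H2-Ob and H2-Oa, the chains of the peptide-loading regulator H2-O, were at -4.15 ± 0.17 and -3.29 ± 0.22, and H2-DMa at -1.02 ± 0.20. Ctss, the protease that trims the invariant chain, was the higher member (1.16 ± 0.09), and it was not called with a common median or after quantile normalization. The promoter-binding factors Rfx5 (-0.60 ± 0.13) and Rfxank (0.20 ± 0.12) were not called.

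Of 17 measured MHC class I and cross-presentation genes (32 listed) 3 were called higher and 0 lower (all genes: 8.64% higher and 3.52% lower), with a median of -0.04. With a common median, 2 were higher and 2 lower. B2m, the light chain of class I, was at 0.44 ± 0.07, and the peptide transporter genes Tap1 and Tap2 were at -0.71 ± 0.11 and -0.78 ± 0.09. The called members were Rab27a, a regulator of vesicle docking (2.35 ± 0.20), Sec61b, a channel subunit of the endoplasmic reticulum (1.32 ± 0.16), and the proteasome subunit Psmb10 (1.29 ± 0.21, not called with a common median).

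Costimulatory and checkpoint genes were higher for 9 of 18 measured members (38 listed) and lower for 2, or 4 with a common median, and the median was 1.12. Cd86, a ligand of CD28, was lower at 7.48 to 8.52 in the LysoMac arrays, against 10.53 to 10.66 in the CD8a+ cDC arrays (-2.55 ± 0.19), while Cd80, its other ligand, was at 0.57 ± 0.13 and not called. The paired receptors Pilra, known as inhibitory, and Pilrb1, known as activating, were both higher, at 5.87 ± 0.32 and 4.40 ± 0.30. Genes known for inhibitory roles were found on both sides: Lgals9, Pirb and Vsir were higher, at 3.23 ± 0.25, 2.84 ± 0.13 and 2.06 ± 0.17, and Btla, the other lower member, was at -5.30 ± 0.17.

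**Figure D3:**
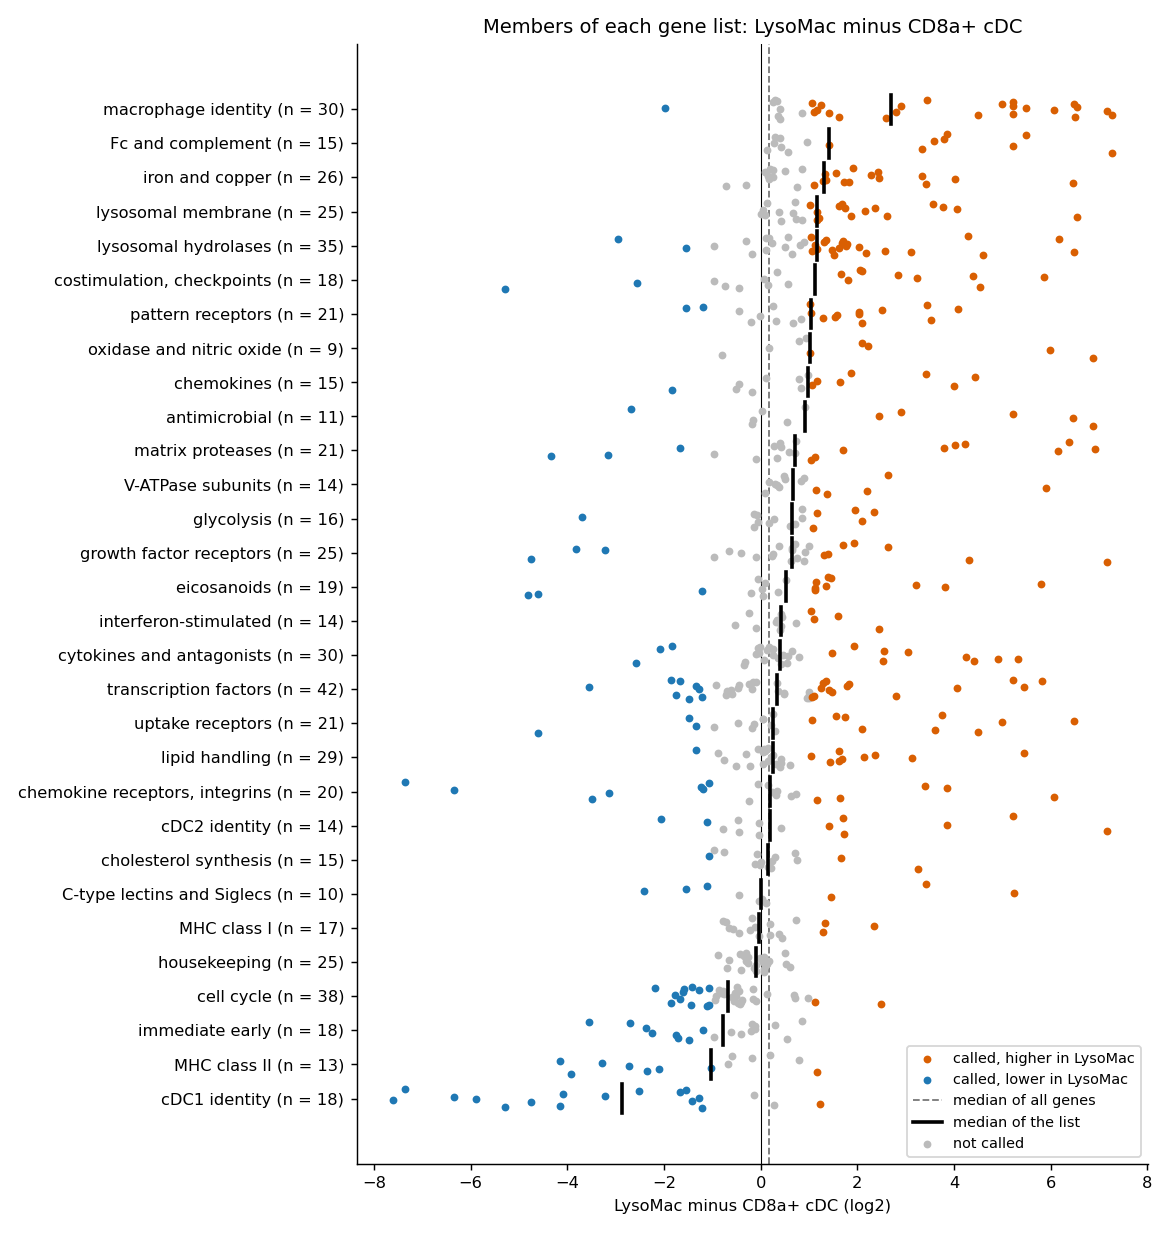
Difference between LysoMac and CD8a+ cDC (x axis, log2) for each measured member of 30 gene lists, ordered by list median (black bar); the height of a point within its row only separates points. Macrophage identity has the highest median (2.70) and cDC1 identity the lowest (-2.86), against a median of 0.17 over all genes (dashed line).

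Of 25 measured members of the growth factor receptor list (41 listed), 7 were called higher and 3 lower, with a median of 0.65. The 7 include Vegfa (1.93 ± 0.22), which encodes a secreted factor and not a receptor, and which is in the cytokine list too. Flt3, on which dendritic cells depend, had levels of 5.27, 4.86 and 5.25 in TIM-4+ LysoMac, 5.61, 5.51 and 5.64 in TIM-4- LysoMac, and 10.19, 10.08 and 10.07 in CD8a+ cDC (-4.76 ± 0.10, adjusted p = 1.14e-19), the opposite of Csf1r above. Kit, the stem cell factor receptor, was at -3.22 ± 0.17, and Met, the hepatocyte growth factor receptor, ranged over 3.27 to 3.50 in the LysoMac arrays, against 6.98 to 7.51 in the CD8a+ cDC arrays (-3.83 ± 0.15). Csf3r, the receptor of G-CSF, was higher at 8.35 to 8.90 in the LysoMac arrays, against 4.22 to 4.37 in the CD8a+ cDC arrays (4.30 ± 0.15), and Tgfbr1, a chain of the TGF-beta receptor, at 2.64 ± 0.21. Csf2rb, the shared chain of the GM-CSF receptor, was at 0.63 ± 0.09, and the interferon-gamma receptor chain Ifngr1 at -0.10 ± 0.12; neither was called.

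Of 42 measured transcription factors (68 listed), 14 were called higher and 8 lower, with a median of 0.34, and with a common median 10 were higher and 10 lower. Nr1h3, the oxysterol receptor LXR alpha, had levels of 10.18, 9.99 and 9.81 in TIM-4+ LysoMac, 9.87, 9.81 and 10.01 in TIM-4- LysoMac, and 4.23, 4.48 and 4.82 in CD8a+ cDC (5.44 ± 0.23). Cebpa and Cebpb, regulators of myeloid genes, were at 2.80 ± 0.21 and 1.11 ± 0.14, and Maf at 1.25 ± 0.12. Lower factors were Nr4a3 (-3.55 ± 0.15), Zfp366, known as DC-SCRIPT (-1.86 ± 0.15), Tcf7l2 (-1.67 ± 0.15) and the lipid-sensing receptor Pparg (-1.34 ± 0.10). Pparg ranged over 3.51 to 3.83 in the LysoMac arrays, against 4.71 to 5.36 in the CD8a+ cDC arrays.

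Chemokine receptors and integrins were called higher for 5 of 20 measured genes (43 listed) and lower for 7, with a median of 0.20. The sort marker Itgam was among the 5. Ccr7, which leads dendritic cells to T cell zones, had levels of 5.96, 5.75 and 5.02 in TIM-4+ LysoMac, 5.95, 5.43 and 5.52 in TIM-4- LysoMac, and 8.50, 9.35 and 9.43 in CD8a+ cDC (-3.49 ± 0.28, adjusted p = 8.95e-10), and arrays did not overlap. The integrin chain Itga4, which pairs with the gut-homing chain beta 7, was at -3.13 ± 0.17. The platelet-activating factor receptor Ptafr was higher at 3.40 ± 0.23 and the receptor Ccr6, whose ligand the follicle epithelium makes, at 1.17 ± 0.21. Cxcr4 (0.63 ± 0.12) and Gpr183 (0.73 ± 0.14) were not called.

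Chemokines were higher for 7 of 15 measured genes (27 listed) and lower for 1, with a median of 0.97. Cxcl2, which draws neutrophils, ranged over 9.12 to 10.47 in the LysoMac arrays, against 5.39 to 5.63 in the CD8a+ cDC arrays (4.44 ± 0.64), and Ccl3, an inflammatory chemokine of macrophages, over 9.75 to 10.38 in the LysoMac arrays, against 4.76 to 6.67 in the CD8a+ cDC arrays (4.00 ± 0.45). Ccl3 varied more among the CD8a+ cDC arrays than among the LysoMac arrays. Pf4 was at 3.41 ± 0.24. Ccl17, a ligand of CCR4, was lower at 8.23 to 9.60 in the LysoMac arrays, against 10.59 to 11.14 in the CD8a+ cDC arrays (-1.83 ± 0.27).

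Cytokines and their antagonists were higher for 9 of 30 measured genes (46 listed) and lower for 3, with a median of 0.39. Il1a, the alarm cytokine, had levels of 9.68, 9.20 and 9.64 in TIM-4+ LysoMac, 9.62, 9.49 and 9.79 in TIM-4- LysoMac, and 4.25, 4.21 and 4.25 in CD8a+ cDC (5.33 ± 0.32, adjusted p = 6.02e-12), and Il1rn, which blocks its receptor, ranged over 9.73 to 10.33 in the LysoMac arrays, against 5.68 to 5.89 in the CD8a+ cDC arrays (4.24 ± 0.17). Il1b was at 0.36 ± 0.24 and not called. Il18bp, which neutralises IL-18, was at 4.90 ± 0.13, and Igf1 at 4.42 ± 0.12. Tnf was lower at 6.21 to 6.89 in the LysoMac arrays, against 8.29 to 8.68 in the CD8a+ cDC arrays (-2.08 ± 0.22), as were Ebi3, a chain of IL-27 and IL-35 (-2.59 ± 0.24), and Tnfsf9, the ligand of 4-1BB (-1.83 ± 0.29).

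Pattern receptors and their adaptors were higher for 12 of 21 measured genes (39 listed) and lower for 2, with a median of 1.04. Tlr4, the receptor of lipopolysaccharide, ranged over 6.84 to 7.66 in the LysoMac arrays, against 3.62 to 3.73 in the CD8a+ cDC arrays (3.44 ± 0.21), and Tlr1, a partner of TLR2 for lipopeptides, over 9.71 to 10.02 in the LysoMac arrays, against 5.77 to 5.88 in the CD8a+ cDC arrays (4.09 ± 0.15); Tlr2 was at 0.26 ± 0.14 and not called. Cytosolic sensors were higher, among them Ddx58, which encodes RIG-I (3.53 ± 0.15), Nlrp3 (2.03 ± 0.17), Nlrc4 (1.57 ± 0.17) and Sting1 (2.04 ± 0.22), and so was Casp1 (2.09 ± 0.13). Tlr12, a profilin receptor, and Tlr13, a receptor of bacterial ribosomal RNA, were lower, at -1.55 ± 0.19 and -1.20 ± 0.17. Of 10 measured lectins and Siglecs (31 listed) 3 were higher and 3 lower. Clec5a, an activating lectin of myeloid cells, was at 5.25 ± 0.19 and the inhibitory lectin Klrb1b at -2.42 ± 0.28.

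Lipid handling had 9 of 29 measured members (44 listed) higher and 1 lower, with a median of 0.25, led after Nr1h3 by Lpcat2, which makes platelet-activating factor (3.14 ± 0.17). Fasn (-0.75 ± 0.16) and Scd1 (0.06 ± 0.41) were not called. In cholesterol synthesis 2 of 15 measured genes (23 listed) were higher and 1 was lower (all genes: 8.64% higher and 3.52% lower), with a median of 0.15. These were Dhcr7, the last enzyme of the pathway, at 3.26 ± 0.29, Mvd at 1.67 ± 0.14 and Nsdhl at -1.07 ± 0.15. Counts this small are not read as a result about the pathway. Nsdhl was at -0.95 and not called without TIM-4+ LysoMac replicate 3, and with a common median 3 genes of the cholesterol list and 3 of the lipid list were lower. Glycolysis had 5 of 16 measured genes (23 listed) higher and 1 lower, with a median of 0.66, and 3 higher with a common median or after quantile normalization. The lactate exporter Slc16a3 was at 2.34 ± 0.17 and the glucose transporter Slc2a1 at 1.96 ± 0.22, while Pfkp, the platelet form of phosphofructokinase, was lower at 4.16 to 4.97 in the LysoMac arrays, against 8.07 to 8.45 in the CD8a+ cDC arrays (-3.69 ± 0.16) and Pfkm, its muscle form, was at 0.86 ± 0.12 and not called.

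Interferon-stimulated genes were called higher for 4 of 14 measured members and lower for 0 (all genes: 8.64% higher and 3.52% lower), with a median of 0.42. With a common median 2 members were called higher. Ifi27l2a was at 2.44 ± 0.24 and Parp14 at 1.60 ± 0.13. Only 14 of 40 listed genes had an accepted row, and of the interferon-inducible GTPases 1 of 19 did, so the GTPases were not assessed.

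Immediate early and cell cycle genes were called lower more often than higher, with most members uncalled. Of 18 measured immediate early genes (30 listed) 8 were lower and 0 higher, with a median of -0.79. Fos had levels of 8.39, 7.44 and 7.70 in TIM-4+ LysoMac, 8.60, 7.79 and 8.34 in TIM-4- LysoMac, and 10.41, 10.29 and 10.19 in CD8a+ cDC (-2.25 ± 0.28), Nr4a2 was at -2.70 ± 0.24 and Ier3 at -2.38 ± 0.20, while Junb (-0.11 ± 0.17) and Dusp1 (0.54 ± 0.20) were not called. These genes are transcribed within minutes of a stimulus. Of 38 measured cell cycle genes (48 listed) 12 were lower and 2 higher, with a median of -0.67. Top2a, the topoisomerase of dividing cells, ranged over 5.79 to 6.36 in the LysoMac arrays, against 8.04 to 8.44 in the CD8a+ cDC arrays (-2.19 ± 0.24), and the mitotic kinase Cdk1 was at -1.67 ± 0.27 and cyclin A2 (Ccna2) at -1.85 ± 0.27. Bub1b, a mitotic checkpoint gene, was higher at 8.55 to 9.12 in the LysoMac arrays, against 6.20 to 6.35 in the CD8a+ cDC arrays (2.48 ± 0.19), as was cyclin D1, Ccnd1 (1.12 ± 0.22), which was not called with a common median or after quantile normalization. With the other scalings 18 or 19 members were called lower.

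Each LysoMac group was also compared with CD8a+ cDC by itself. TIM-4+ LysoMac differed at 1720 genes, 12.5% of those compared (1213 higher, 8.82%, and 507 lower, 3.69%) and TIM-4- LysoMac at 1658, 12.1% (1180 higher, 8.58%, and 478 lower, 3.48%). These comparisons share the CD8a+ cDC arrays. By the adjusted p alone 49.1% of genes passed for TIM-4+ and 48.5% for TIM-4- LysoMac. TIM-4+ and TIM-4- LysoMac lie in 1 array set, and 25 genes (0.182%) passed the call between them, of which 7 (0.0509%) were higher in TIM-4+ cells and 18 (0.131%) lower. Of these 25, 21 were also called in LysoMac against CD8a+ cDC (all genes: 12.2%). That comparison uses the same LysoMac arrays, so the overlap is no independent result.

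Timd4, which encodes the sorted receptor TIM-4, had levels of 10.80, 10.76 and 10.80 in TIM-4+ LysoMac, 5.15, 5.29 and 6.56 in TIM-4- LysoMac, and 4.48, 4.41 and 4.52 in CD8a+ cDC. TIM-4+ minus TIM-4- was 5.12 ± 0.32, and 1 TIM-4- array (replicate 3) stood above the other TIM-4- arrays. Against CD8a+ cDC the difference was 6.32 ± 0.32 in TIM-4+ cells and 1.20 ± 0.32 in TIM-4- cells, so the mean over LysoMac describes neither group. Without TIM-4- replicate 3 the difference in TIM-4- cells was 0.75 and not called, and it was not called with a common median (0.90) or after quantile normalization (0.85) either. H2-Eb1 had levels of 8.05, 8.73 and 7.93 in TIM-4+ LysoMac, 10.39, 10.16 and 10.07 in TIM-4- LysoMac, and 11.98, 11.88 and 11.98 in CD8a+ cDC, and TIM-4+ minus TIM-4- was -1.97 ± 0.15. Both LysoMac groups lay below CD8a+ cDC, and TIM-4+ cells lay lowest. H2-Aa and H2-Ab1 showed the same order, at -2.24 ± 0.22 and -1.94 ± 0.19 between the LysoMac groups, whereas Ciita was at -0.72 ± 0.13 (adjusted p = 0.00838) and not called between them.

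Other genes that separated the LysoMac groups did not all place TIM-4+ cells further from CD8a+ cDC. Igf1 and Cybrd1, a ferric reductase, were higher in TIM-4+ than in TIM-4- cells, by 1.13 ± 0.13 and 1.86 ± 0.15, and both were higher in LysoMac than in CD8a+ cDC. Adam8, Alox5ap and Adam23 were lower in TIM-4+ cells, at -1.76 ± 0.17, -1.65 ± 0.28 and -1.07 ± 0.14, and lower in LysoMac than in CD8a+ cDC. Adam23 was at -0.99 and not called without TIM-4+ replicate 3 or after quantile normalization. Itgam and Bst1, an ADP-ribosyl cyclase, were lower in TIM-4+ cells, at -1.39 ± 0.21 and -2.25 ± 0.25, and higher in LysoMac than in CD8a+ cDC. Against CD8a+ cDC, Bst1 was at 0.38 ± 0.25 in TIM-4+ cells, not called, and at 2.63 ± 0.25 in TIM-4- cells, called. Il1b, which was not called over all LysoMac, was at -1.72 ± 0.28 in TIM-4+ minus TIM-4- cells, with -0.50 ± 0.28 in TIM-4+ cells (not called) and 1.22 ± 0.28 in TIM-4- cells (called) against CD8a+ cDC. The call in TIM-4- cells was lost with a common median (0.92) and after quantile normalization (0.99). C1qa (0.03 ± 0.53), Csf1r (0.06 ± 0.32) and Ctsd (0.14 ± 0.37) were not called between the LysoMac groups.

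**Figure D4:**
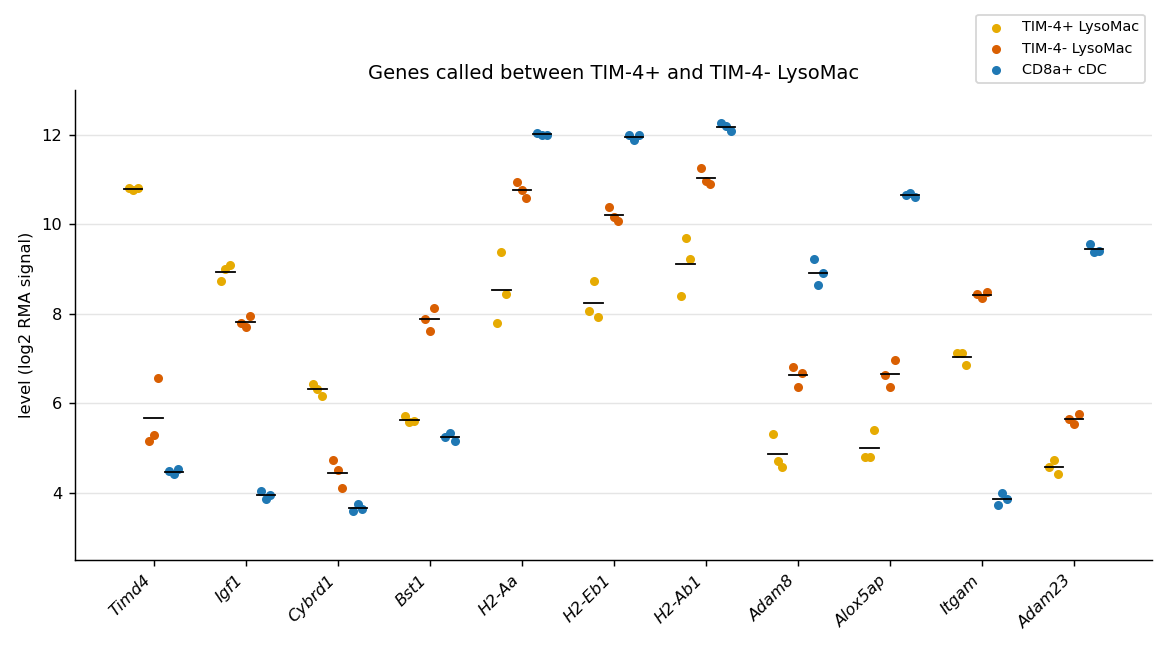
Levels (log2 RMA signal) in each of the 9 arrays for 11 genes called between TIM-4+ and TIM-4- LysoMac, with bars at the mean of 3 arrays. Timd4, Igf1 and Cybrd1 are highest in TIM-4+ LysoMac, Bst1 and Itgam are highest in TIM-4- LysoMac, and the other genes are highest in CD8a+ cDC and lowest in TIM-4+ LysoMac.

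The CD11b+ and DN cDC arrays lay in the same array set as LysoMac, and gave a comparison without a change of set, though it shares the LysoMac arrays. LysoMac differed from them at 1024 genes (7.45%), with 582 higher (4.23%) and 442 lower (3.22%). C1qa was 4.59 there, Mmp2 5.28, Cp 6.07, Atp6v0d2 6.40, Mertk 5.17, Flt3 -4.99, Ciita -4.08 and Ccr7 -3.95, each in the direction it had against CD8a+ cDC. Xcr1 (-0.30), Gpr141b (-0.19), Gpr33 (-0.18) and Met (-0.05) were not called there, and Tlr12 was higher in LysoMac (2.27). Of 18 measured members of the cDC1 list, 6 were called lower there and 3 higher. Itgae (-5.28) and Btla (-4.01) were among the lower ones. They averaged 10.02 and 8.20 in CD11b+ cDC, and 9.61 and 7.73 in DN cDC. Csf1r (2.34), Cybb (1.19) and Pilra (1.12) were called higher there too, by much less than against CD8a+ cDC. Csf1r averaged 9.72 in CD11b+ cDC and 9.02 in DN cDC, and Cybb 10.51 and 10.34. Slc40a1 was 2.14 and Hmox1 3.86, both called, and Cd86 was -0.70 and not called. Lyz2 was not called there either (0.54 ± 0.59, adjusted p = 0.55). Il1rn (0.98 ± 0.13, adjusted p = 1.86e-06) and Slc15a3 (0.93 ± 0.16, adjusted p = 7.78e-05) passed the adjusted p but fell short of the minimum difference of 1. Both genes were thus higher in LysoMac there too, by much less than against CD8a+ cDC.

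Markers of other cell types were read as lists. Of 7 measured T cell markers (16 listed) 4 were called higher in LysoMac and 0 lower: Cd3g (1.46 ± 0.52), Lat (1.45 ± 0.16), Thy1 (1.13 ± 0.32) and Cd3e (1.01 ± 0.18). The mean level of the 7 was 4.54 to 5.07 in the LysoMac arrays, against 4.03 to 4.06 in the CD8a+ cDC arrays, and 1 of them was called under each other scaling. Cd4 is a T cell gene too, and the part of T cells in its value was not tested. Of 5 measured plasmacytoid dendritic cell markers (14 listed) 3 were higher, Siglech (3.43 ± 0.21), Lair1 (5.01 ± 0.19) and Cox6a2 (1.47 ± 0.18), and the mean level of the 5 was 6.94 to 7.47 in the LysoMac arrays, against 4.98 to 5.11 in the CD8a+ cDC arrays. BST2, a marker of those cells, was part of the LysoMac gate, and their part in the result was not tested.

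Of 11 measured stroma and endothelium markers (17 listed) 3 were higher, Madcam1 (1.60 ± 0.13), Sparc (1.32 ± 0.45) and Igfbp7 (1.21 ± 0.44), and 1 under each other scaling. Madcam1 was also higher in TIM-4+ than in TIM-4- LysoMac (1.19 ± 0.15). The mean level over that list was 4.20 to 5.23 in the LysoMac arrays, against 3.80 to 3.89 in the CD8a+ cDC arrays. Of 6 measured plasma cell markers Prdm1 and Irf4, which myeloid cells also use, were higher, with list means of 5.15 to 5.38 in LysoMac, against 4.42 to 4.93 in CD8a+ cDC. Of 6 measured neutrophil markers Csf3r was higher, and the list means were 4.61 to 4.77 in LysoMac, against 3.70 to 3.86 in CD8a+ cDC. Of 8 measured NK and innate lymphoid markers Nkg7 was higher (1.10 ± 0.37), though not under the other scalings, and Klrd1 (-1.54 ± 0.24) and Klrk1 (-3.32 ± 0.19) were lower. Their list means were 4.12 to 4.46 in LysoMac, against 4.50 to 4.58 in CD8a+ cDC.

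None of 5 measured B cell markers, of 8 of mast cells, basophils and eosinophils and of 13 of epithelium was called, while 1 epithelial marker was lower under each other scaling. List means for B cells were 4.29 to 4.62 in LysoMac, against 4.29 to 4.47 in CD8a+ cDC. For mast cells, basophils and eosinophils they were 4.00 to 4.12 in LysoMac, against 3.73 to 3.89 in CD8a+ cDC. For epithelium they were 4.46 to 5.74 in LysoMac, against 4.40 to 5.15 in CD8a+ cDC. The part of these cells in the results was not tested.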

How the data were processed

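The authors deposited log2 signals that RMA in Affymetrix Expression Console 1.4.1 gave, per the submitters' processing notes. Whether 1 normalization covered every array is not given in the sources used here, nor is the annotation's genome build. The 25 columns of the deposited table fell into 3 sets of different row order (correlation across rows at least 0.938 within a set and 0.0755 to 0.225 between sets), and the row names fitted the R848 arrays. Rows were aligned in order with a pair hidden Markov model in Python 3.11.15 (numpy 2.4.6, numba 0.67.0), through CD11b+ cDC for the LysoMac set and CD8a+ cDC for the other, so LysoMac levels were not used. A row was accepted where the partner had a posterior of at least 0.9 under 3 settings, no gap within 2 rows, and a correlation of at least 0.8 over 10 rows either side. Of 28939 aligned rows, 22251 and 21953 were accepted in the LysoMac and CD8a+ cDC sets, and 18543 in both. In tests on simulated data a wrong partner was given to at most 0.676% of the rows accepted, and at least 59.6% of changed rows were accepted. Those changes were put at random rows, whereas here untreated arrays were aligned to R848-treated arrays. Only 14 of 40 interferon-stimulated genes and 1 of 19 interferon-inducible GTPases had an accepted row. Whether genes that respond to R848 lost their rows more often was not tested, so measured members may not stand for their whole list. In 601 genes with 2 or more transcript clusters, 2 clusters of a gene correlated at 0.827 in LysoMac and 0.823 in CD8a+ cDC after alignment, against 0.136 and 0.0813 in their sets as deposited (999 genes).

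Genes with 1 symbol were kept (1 cluster a gene). limma 3.58.1 in R 4.3.3 was fitted to all 25 arrays in 7 groups (18 residual degrees of freedom) and p-values were adjusted by the Benjamini-Hochberg method over all 13746 genes. The series text calls the replicates independent, and p-values measure only the spread between these arrays. Genes were named by rule: the 12 largest differences each way that held under all scalings without overlap, up to 4 called members of each list and 2 in the other direction, the sort markers, and up to 6 genes called between the LysoMac groups and against CD8a+ cDC. Further list members, among them the uncalled ones other than Itgax, were named after their values were seen. The members and lists were chosen with earlier results of these data known. Same-numbered arrays did not deviate together (correlations of -0.188 to 0.12), so the numbers were not taken as pairs. Gene lists were compared with all genes by count and median, with no set test. Alternatives were 3 scalings, other thresholds, filters, variance models, alignments and samples.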

Additional observations from a re-analysis of the deposited data

Results flagged for a closer look

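A difference between the LysoMac groups that passed the test of that difference was seen for 11 genes named by the rule, as TIM-4+ minus TIM-4- LysoMac on the log2 scale. Timd4 was 5.12, Cybrd1 was 1.86 and Igf1 was 1.13. Bst1 was -2.25, H2-Aa was -2.24, H2-Eb1 was -1.97, H2-Ab1 was -1.94, Adam8 was -1.76, Alox5ap was -1.65, Itgam was -1.39 and Adam23 was -1.07. Il1b (-1.72) and Madcam1 (1.19), named in the text outside the rule, passed that test too. Timd4 is the gene of the sorted receptor, and the gate itself sets its direction.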

How the results depend on the processing

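Genes called higher in LysoMac were 1188 as reported, 726 with a common median and 770 after quantile normalization, and genes called lower were 484, 860 and 772. The median difference between array sets was 0.17 as reported, -0.13 with a common median, -0.01 after quantile normalization and 0.01 after cyclic loess. limma's treat test against 1 log2 unit called 579 higher and 219 lower genes, and 745 genes in TIM-4+ and 700 in TIM-4- LysoMac against CD8a+ cDC. With the adjusted p alone and no minimum difference, 5595 genes were higher and 1954 lower, and the counts were 6749 for TIM-4+ and 6671 for TIM-4- LysoMac. Without 1 array at a time, 1172 to 1208 genes were higher and 465 to 510 lower, and 1686 to 1757 were called in TIM-4+ and 1636 to 1713 in TIM-4- LysoMac. With the replicate number as a block, 1187 were higher and 484 lower, and the numbers did not pair the arrays. Counts for the comparisons of TIM-4+ with TIM-4- LysoMac (25) and of LysoMac with CD11b+ and DN cDC (1024) were rerun as alternatives chosen after seeing the data. They were 4 and 570 by treat, 55 and 4411 by the adjusted p alone, and 21 to 35 and 1021 to 1047 without 1 of the 9 arrays. Of 143 named genes, 122 kept direction and call under every alternative run for them. The reversed one was Itgax, at -0.17 with a common median and -0.16 after quantile normalization. Array set and cell group cannot be told apart, 3 arrays of CD8a+ cDC limit the precision, and genes without an accepted row were not assessed.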

Other observations

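P2 receptor genes, a family named for receptors of extracellular nucleotides, were taken by symbol and picked after their values were seen. They were called higher in LysoMac for 5 of 13 measured genes and lower for 2 (all genes: 8.64% higher and 3.52% lower), with a median of 0.34. P2ry13 and P2ry12, which bind ADP and are known from microglia, were at 5.96 ± 0.22 and 3.14 ± 0.19 in log2 units, LysoMac minus CD8a+ cDC. The ATP-gated channels P2rx4 and P2rx7 were at 2.65 ± 0.19 and 1.19 ± 0.14, and P2ry2, which binds ATP and UTP, at 2.47 ± 0.17. P2ry10, which has a P2 symbol but is a receptor of lysophospholipids, was lower at -4.42 ± 0.16, and the UDP receptor P2ry6 at -1.61 ± 0.25. Plexins, neuropilins and semaphorins were called higher for 5 of 17 measured genes and lower for 1 (all genes: 8.64% higher and 3.52% lower). Plxnd1 was at 5.97 ± 0.12, Nrp2 at 4.61 ± 0.22 and Sema4a, the lower one, at -1.83 ± 0.19.

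Other genes with large differences lay outside the lists. Gda, the guanine deaminase, averaged 10.54 in LysoMac, against 4.14 in CD8a+ cDC (6.40 ± 0.33). The genes that follow were picked after their values were seen. Slc7a11, the cystine transporter, averaged 9.74 in LysoMac, against 3.94 in CD8a+ cDC (5.80 ± 0.16). Lower genes included Aldh1a2, an enzyme of retinoic acid synthesis, which averaged 4.46 in LysoMac, against 7.94 in CD8a+ cDC (-3.48 ± 0.16), Kmo, an enzyme of tryptophan breakdown (-4.30 ± 0.23), and the fatty acid receptor Ffar4 (-4.76 ± 0.21).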
